A study of Mus musculus with 58 samples.

Results

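The 6 genes Chst2, Actr3b, Sdc3, Nes, Lgals3bp and Cpd were followed across 34 libraries of mouse microglia in 8 groups, as 6 of the 47643 Ensembl genes counted in each library. They were selected on their level in CPM (counts scaled to a common library total), which was higher in adult microglia of P301S+ mice than in adult microglia of the mice without the transgene, so that contrast is described here and not tested. The P301S+ group held 4 libraries of microglia from male PS19 mice, which carry human tau with the P301S mutation, at 10.98 months. The NTG group held 4 libraries from non-transgenic males, 2 at 11.18 and 2 at 10.98 months. Both adult groups were captured on CD11b beads from perfused brains after myelin removal, a gate that also takes other CD11b-positive myeloid cells. The cultures were primary microglia shaken off mixed glia of newborn cortex and hippocampus. Wild-type cultures received full-length tau fibrils at 2 µg/ml for 24 h or vehicle, with 4 libraries each. In 5 IkbkbCA libraries (Cx3cr1CreERT2/+; IkbkbCA F/F) tamoxifen-induced Cre switched on a constitutively active IKKβ from the Rosa26 locus, against 5 IkbkbWT libraries (Cx3cr1+/+; IkbkbCA F/F). In 4 Ikbkb-/- libraries (Cx3cr1CreERT2/+; Ikbkb F/F) Cre removed IKKβ, against 4 Ikbkb+/+ libraries (Cx3cr1+/+; Ikbkb F/F). All 4 of these Ikbkb groups received 4-hydroxytamoxifen for 3 days, but only IkbkbCA and Ikbkb-/- carried Cre and had 1 Cx3cr1 copy replaced by it, so the effects of Cre, of that lost copy and of the Ikbkb allele cannot be told apart.

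Tau fibrils and tau-bearing neurons expose microglia to aggregates, which the cells take up by endocytosis and phagocytosis, in part through heparan sulfate proteoglycans on the membrane. IKKβ, the kinase encoded by Ikbkb, releases the transcription factor NF-κB from its inhibitor, and activated microglia often secrete type I interferon, which induces a broad set of antiviral genes. The 6 genes are not one pathway. Chst2 encodes a Golgi sulfotransferase that adds sulfate to N-acetylglucosamine in glycans, and Sdc3 encodes syndecan-3, a transmembrane core protein that carries heparan sulfate. Lgals3bp encodes a secreted glycoprotein that binds galectin-3, and Cpd encodes carboxypeptidase D, a Golgi enzyme that trims basic residues from protein ends. Actr3b encodes an isoform of a subunit of the complex that nucleates branched actin. Nes encodes nestin, an intermediate filament protein best known from neural progenitors.

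Totals ran from 1672052 to 8349128 counts in genes per library. Summed markers of microglia were 43100 to 48800 CPM in NTG and 33900 to 48900 CPM in P301S+, but 5680 to 7150 CPM in vehicle cultures and 12100 to 13900 CPM after tau fibrils; P2ry12, a receptor of resting microglia, was at 4140 to 5390 CPM in NTG and at only 3.74 to 8.67 CPM in vehicle. The third IkbkbWT library stood apart, with 5320 CPM of summed oligodendrocyte markers against 333 to 762 in the other 4, and 825 CPM of astrocyte markers against 53.9 to 186. The third IkbkbCA library leaned the same way (1980 CPM of oligodendrocyte and 310 of astrocyte markers, against 422 to 775 and 85.1 to 181). Replicates 4 and 5 of both these groups held 366 to 405 CPM of neuronal markers, against 52.2 to 133 in replicates 1 to 3. In Ikbkb+/+, replicate 1 held 419 CPM of granulocyte markers against 12.5 to 97.5. Ikbkb itself was at 24.6, 24.4, 18.5 and 22.2 CPM in Ikbkb-/- and at 52.5, 44.7, 53.0 and 55.2 CPM in Ikbkb+/+ (log2 fold change -1.21 ± 0.12 SE, edgeR false discovery rate, FDR, 6.34e-07), so the label held. It differed little between IkbkbCA and IkbkbWT (0.17 ± 0.12, edgeR FDR 0.405), where the active kinase comes from a transgene whose reads may not map to Ikbkb.

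All 6 are protein-coding, and their spans are on GRCm38. Chst2 (ENSMUSG00000033350) lies on chromosome 9, from 95399292 to 95406722, on the minus strand. Actr3b (ENSMUSG00000056367) lies on chromosome 5, from 25759997 to 25850688, plus strand, and Sdc3 (ENSMUSG00000025743) on chromosome 4, from 130792537 to 130826319, plus strand. Nes (ENSMUSG00000004891) lies on chromosome 3, from 87971078 to 87980451, plus strand. Lgals3bp (ENSMUSG00000033880, 118392751 to 118402092) and Cpd (ENSMUSG00000020841, 76778424 to 76847018) both lie on the minus strand of chromosome 11, far from each other. Exons of Sdc3 overlap those of the antisense genes Gm12970 and Gm26716, which had at most 0 and 1 counts in any library.

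Sdc3, Lgals3bp and Cpd rose together in 2 culture comparisons below, so their promoter windows are shown, each from 250 bases before to 50 bases after the RefSeq gene start (GRCm38.p6), written in the direction of the gene. Capitals mark matches to the motifs that were searched on both strands: the interferon-stimulated response element core (GAAA, any 2 bases, GAAA), a variant of it (AAA, any 2 bases, GAAAC), and the κB consensus. The variant lacks the first G, has a further C at its end and was added after the sequences were seen.
Lgals3bp, chr11:118401910-118402209, minus strand: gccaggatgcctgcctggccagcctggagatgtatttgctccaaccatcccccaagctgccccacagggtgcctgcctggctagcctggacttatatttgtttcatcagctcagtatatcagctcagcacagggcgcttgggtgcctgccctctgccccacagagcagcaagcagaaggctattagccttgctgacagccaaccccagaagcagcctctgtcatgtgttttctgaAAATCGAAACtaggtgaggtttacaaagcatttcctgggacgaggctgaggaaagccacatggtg
Sdc3, chr4:130792287-130792586, plus strand: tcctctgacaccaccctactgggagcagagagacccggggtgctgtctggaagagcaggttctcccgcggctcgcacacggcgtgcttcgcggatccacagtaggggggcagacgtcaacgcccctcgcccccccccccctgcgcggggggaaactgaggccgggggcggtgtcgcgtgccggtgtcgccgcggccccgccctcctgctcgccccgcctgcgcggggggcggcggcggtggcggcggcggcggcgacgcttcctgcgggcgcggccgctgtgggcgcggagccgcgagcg
Cpd, chr11:76846959-76847258, minus strand: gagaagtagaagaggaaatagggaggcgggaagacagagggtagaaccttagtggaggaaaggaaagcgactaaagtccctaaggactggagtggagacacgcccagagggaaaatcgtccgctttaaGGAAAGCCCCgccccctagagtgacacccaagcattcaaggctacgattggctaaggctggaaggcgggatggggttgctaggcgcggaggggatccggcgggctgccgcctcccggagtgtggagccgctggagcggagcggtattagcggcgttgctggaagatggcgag
The capitals in Lgals3bp are 1 match to the variant, held by 2.24% of the 32851 RefSeq promoter windows of this length. Those in Cpd are 1 match to the κB consensus, held by 8.46% of the windows. The core, held by 3.44%, had no match in any of the 5 windows read (Nes and Chst2 included), and Sdc3, Nes and Chst2 held none of the 3 motifs. A match describes letters in a window and was not tied to any binding here. Windows and genes were matched by symbol for 5 of the 6, all but Actr3b.

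In the adult brain, where the choice was made, the largest separations were those of Chst2 and Actr3b. Chst2 was at 138, 69.2, 111 and 90.6 CPM in P301S+ replicates 1 to 4 and at 11.5, 11.8, 18.5 and 8.43 CPM in NTG. Its log2 fold change was 2.95, a 7.73-fold higher level. Actr3b was at 16.5, 7.96, 21.3 and 8.89 CPM in P301S+. In NTG it was nearly off, with 2, 3, 3 and 3 counts per library, so its level in P301S+ was at least 10.2-fold higher (at least 3.35 on the log2 scale) against a floor of 3 counts per library. P301S+ replicates 1 and 3 held more Actr3b than replicates 2 and 4.

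Of the other 4 genes, Sdc3, Cpd and Lgals3bp had means of 44.1, 70.4 and 110 CPM in NTG. Nes, at 11.7 CPM, was about as low there as Chst2 at 12.6 CPM. Sdc3 was at 104, 111, 203 and 127 CPM in P301S+ and at 37.9, 39.9, 49.2 and 49.4 CPM in NTG, which gave a log2 fold change of 1.59. Nes was at 31.8, 28.8, 33.5 and 31.6 CPM in P301S+ and at 12.1, 12.2, 12.1 and 10.2 CPM in NTG (log2 fold change 1.39), with little spread within either group. Lgals3bp was at 228, 221, 313 and 219 CPM against 101, 122, 106 and 111 CPM in NTG (log2 fold change 1.12). Cpd was at 176, 126, 193 and 145 CPM against 81.9, 74.8, 68.2 and 56.6 CPM in NTG (log2 fold change 1.15). Replicate 3 was the highest P301S+ library for all but Chst2, which was highest in replicate 1. By the choice, every P301S+ library lay above every NTG library for 6 of 6 genes; this held for 3.86% of the 11323 genes tested. The lowest P301S+ and the highest NTG libraries were closest for Cpd (126 against 81.9 CPM) and farthest apart for Actr3b (7.96 against 1.81 CPM). Because these are bulk samples, more cells of one type and more RNA per cell cannot be told apart.

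Markers of other cells were measured beside the adult contrast. Of the lists, disease-associated microglia markers summed to 34300 to 54400 CPM in P301S+ and 25400 to 31600 in NTG, interferon-response genes to 372 to 617 and 321 to 394, and endothelial markers to 446 to 900 and 332 to 579. NF-κB response genes summed to 5950 to 10700 CPM in P301S+ and 3120 to 7150 in NTG (median log2 fold change 0.53 over 16 genes, against 0.50 for 16 interferon-response genes and 0.00 for all genes). Of the other CD11b-positive cells, granulocyte markers summed to 443 to 2770 and 1670 to 2320 CPM and border-associated macrophage markers to 433 to 1040 and 381 to 667 CPM, so both overlapped. The 10 astrocyte markers summed to 903 to 2060 and 719 to 1100 CPM, nearly all of it Slc1a3, a glutamate transporter at 833 to 2010 and 643 to 1000 CPM. Gfap and Aqp4, which define astrocytes, were at 1.53 to 2.67 and 0.444 to 1.62 CPM in P301S+ and at 0.42 to 3.01 and 0.883 to 6.05 CPM in NTG. Aldh1l1 and Gjb6, also low, were higher in P301S+ without overlap. They were at 1.62 to 2.45 and 1.97 to 3.93 CPM there and at 0 to 1.55 and 0 to 1.65 CPM in NTG. All other markers on the list overlapped between the groups. Neural progenitor markers summed to 41.3 to 57.8 and 20.5 to 46.7 CPM, a small fraction of their 659 to 894 CPM in vehicle cultures. The part of these lists in the adult values was not tested.

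**Figure D1:**
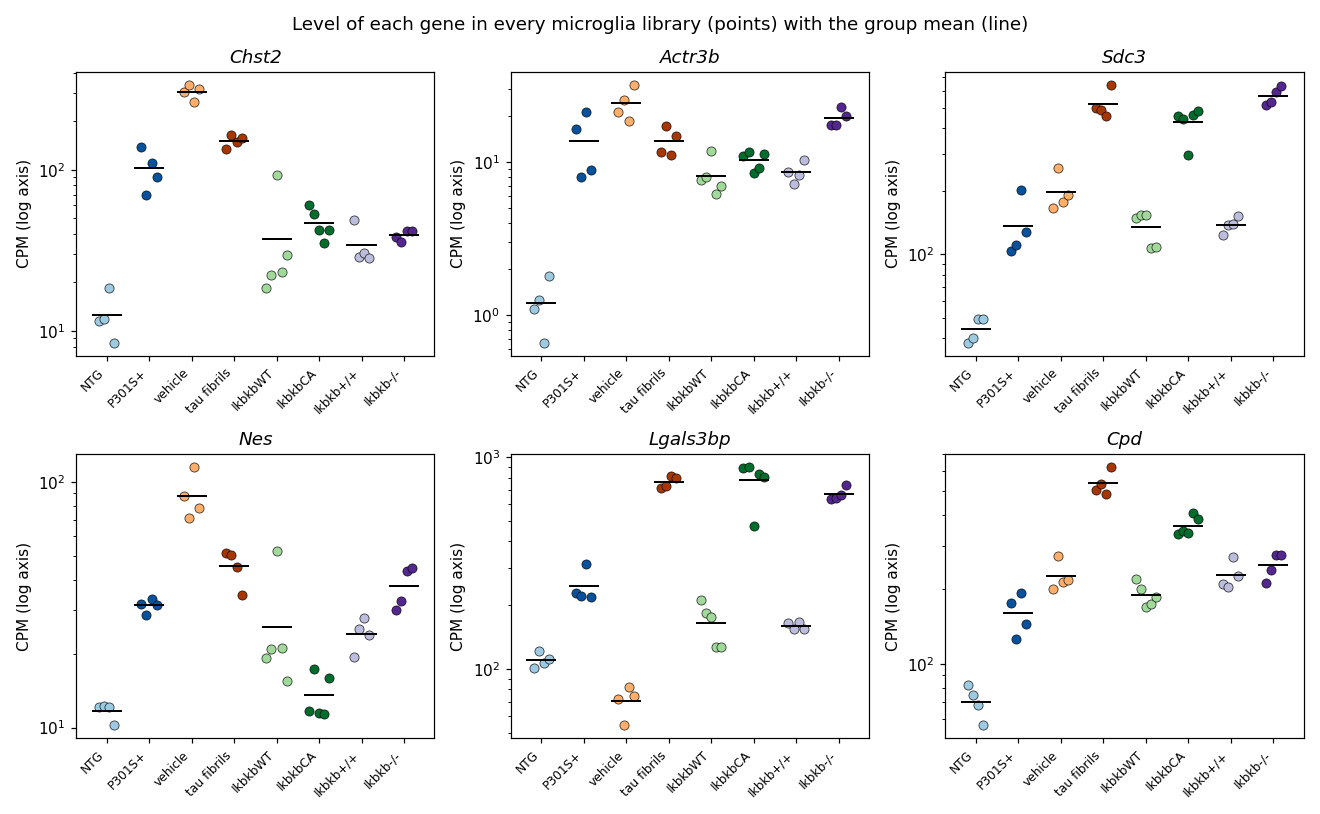
CPM of each gene (log axis) in every library, one panel per gene; points are libraries in replicate order, lines are group means, and the groups stand as control and test in pairs. P301S+ points lie above NTG points in every panel by choice; the vehicle and tau fibril points separate downwards for Chst2, Actr3b and Nes and upwards for Sdc3, Lgals3bp and Cpd.

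Across the 8 groups the genes fell into different orders, given here as a description. NTG had the lowest mean for 5 of 6, the exception being Lgals3bp. Chst2 spanned 24.3-fold, from 12.6 ± 4.26 CPM (SD, n = 4) in NTG to 305 ± 30.8 (SD, n = 4) in vehicle cultures. Its 4 Ikbkb culture groups lay together at means of 34.2 to 46.7 CPM, and neighbours among them overlapped; P301S+ (102 ± 29.3, SD, n = 4) overlapped tau fibrils (151 ± 13.3, SD, n = 4). Actr3b spanned 20.2-fold, from 1.21 ± 0.473 CPM (SD, n = 4) in NTG to 24.4 ± 5.84 (SD, n = 4) in vehicle, and its P301S+ and tau fibril ranges overlapped, both with a mean of 13.7 CPM. Nes spanned 7.53-fold, from 11.7 ± 0.951 CPM (SD, n = 4) in NTG to 87.8 ± 19.2 (SD, n = 4) in vehicle, with IkbkbCA (13.6 ± 2.89, SD, n = 5) overlapping NTG. These 3 genes thus had their highest mean in the unstimulated wild-type cultures.

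For the other 3, the highest means were in stimulated or Cre-bearing cultures. Sdc3 spanned 12.9-fold, from 44.1 ± 6.05 CPM (SD, n = 4) in NTG to 568 ± 53.9 (SD, n = 4) in Ikbkb-/-, which overlapped tau fibrils (521 ± 82.9, SD, n = 4), which in turn overlapped IkbkbCA (427 ± 73.4, SD, n = 5). Lgals3bp spanned 11-fold, from 70.7 ± 11.8 CPM (SD, n = 4) in vehicle to 780 ± 177 (SD, n = 5) in IkbkbCA, again overlapping tau fibrils and Ikbkb-/-. Cpd spanned 7.60-fold, from 70.4 ± 10.7 CPM (SD, n = 4) in NTG to 535 ± 61.5 (SD, n = 4) after tau fibrils. The Cpd ranges did not overlap between tau fibrils and IkbkbCA (361 ± 32.5, SD, n = 5), nor between IkbkbCA and Ikbkb-/- (250 ± 31.1, SD, n = 4).

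The first tested comparison asked what tau fibrils did to these genes in wild-type microglia within 24 h. All 6 changed, 3 upwards and 3 downwards. The fibril and vehicle libraries did not overlap for any of them, but the share of all genes without overlap was not counted. In this comparison 29.9% of the 10408 genes tested passed the same threshold (edgeR quasi-likelihood test, FDR below 0.05), so a call alone was common here.

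Of the 3 that rose, Lgals3bp, the secreted galectin-3 ligand, moved most. It was at 72.2, 54.3, 82.3 and 74.2 CPM in vehicle and at 711, 733, 817 and 799 CPM after fibrils, a log2 fold change of 3.43 ± 0.15 (SE; 10.8-fold, edgeR FDR 1.73e-16). Sdc3, the syndecan, was at 166, 258, 177 and 192 CPM in vehicle and 498, 487, 457 and 643 CPM after fibrils (1.37 ± 0.15 SE, edgeR FDR 3.28e-08). Cpd was at 201, 273, 214 and 218 CPM in vehicle and 503, 531, 483 and 622 CPM after fibrils (1.22 ± 0.13 SE, edgeR FDR 4.26e-08). Vehicle replicate 2 was the highest of its group for Sdc3 and Cpd and the lowest for Lgals3bp. Interferon-response genes rose in the same libraries, 17 of 17 called higher, with summed levels of 2890 to 3340 CPM after fibrils and 123 to 222 in vehicle. NF-κB response genes rose there as well, 11 of 13 tested called higher (median log2 fold change 1.94, against 4.34 for the interferon list). Their sums were 3890 to 4550 CPM after fibrils and 386 to 479 in vehicle, with Ccl5 alone at 2840 to 3490 CPM after fibrils.

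The 3 that fell went down by about the same factor. Chst2 was at 304, 336, 263 and 316 CPM in vehicle and 134, 165, 148 and 158 CPM after fibrils, and its log2 level fell by 1.03 ± 0.13 (SE; 2.04-fold lower, edgeR FDR 4.18e-07). Nes was at 87.2, 71.1, 115 and 78.2 CPM in vehicle and 51.3, 50.4, 45.1 and 34.8 CPM after fibrils, and fell by 0.96 ± 0.17 on the log2 scale (SE, edgeR FDR 8.15e-05). Actr3b was at 21.4, 25.4, 18.6 and 32.1 CPM in vehicle and 11.7, 17.2, 11.1 and 14.9 CPM after fibrils, the closest pair of ranges of the 6 (fell by 0.85 ± 0.24 on the log2 scale, SE, edgeR FDR 0.00816).

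Markers of most of the other cells of mixed glia were also lower in the fibril libraries. Astrocyte markers summed to 436 to 504 CPM after fibrils and 820 to 874 in vehicle (6 of 9 tested lower, median log2 fold change -0.86, Gjb6 at 0 in every library of both groups). Neural progenitor markers, a cell type in which nestin is abundant, summed to 353 to 375 and 659 to 894 CPM (6 of 7 lower, median -0.90), oligodendrocyte precursor markers to 257 to 320 and 564 to 602 (4 of 6 lower, median -0.84), neuronal markers to 212 to 266 and 389 to 472 (7 of 10 lower, median -0.85), and pericyte and smooth muscle markers to 173 to 190 and 423 to 609 CPM (3 of 3 lower, median -1.62). Oligodendrocyte markers were not lower as a list, at 191 to 226 CPM after fibrils and 168 to 242 in vehicle (1 of 5 higher and 1 lower, median -0.01). Microglia markers were higher, 6 of 12 called, with sums of 12100 to 13900 CPM after fibrils and 5680 to 7150 in vehicle. The median over all genes tested was -0.01. The part of the other cells in the lower Chst2, Nes and Actr3b was not tested. Nor was the part of microglia RNA in the higher Sdc3, Lgals3bp and Cpd. The astrocyte, progenitor, precursor, neuronal, pericyte and microglia sums did not overlap between the groups. Treatment and these sums therefore cannot be told apart in these libraries.

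**Figure D2:**
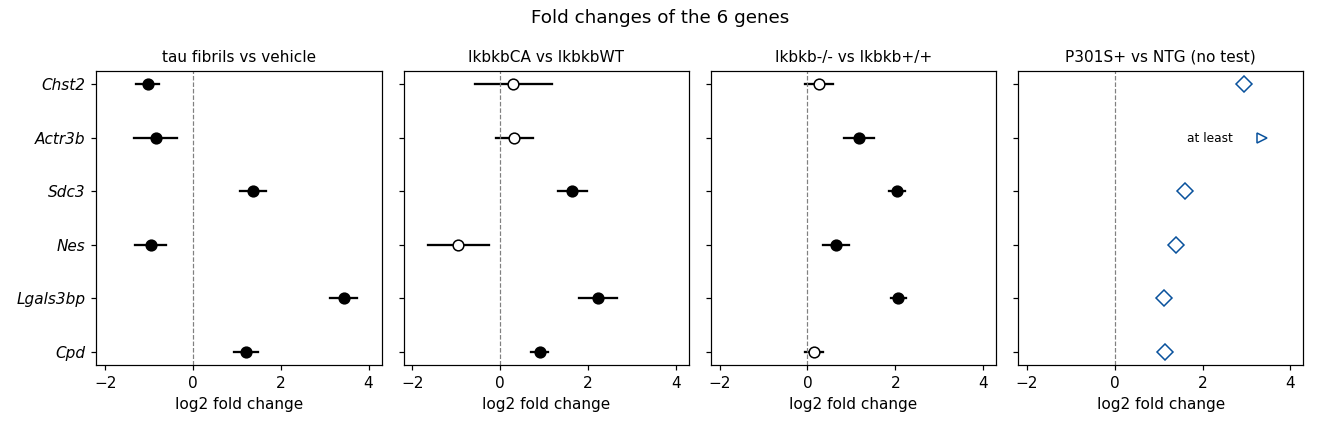
Log2 fold change of each gene in the 4 comparisons, with 95% confidence intervals from the quasi-likelihood fit as bars; filled circles passed an FDR of 0.05 and open circles did not. Diamonds for P301S+ vs NTG carry no test, and the triangle for Actr3b is a lower bound of 3.35; Sdc3 and Lgals3bp lie right of 0 in every panel, while Chst2, Actr3b and Nes lie left of 0 after tau fibrils and right of it in P301S+.

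Constitutively active IKKβ, compared with IkbkbWT, asked which of the genes respond to NF-κB activation without fibrils. Sdc3, Lgals3bp and Cpd rose, 3 of 6 genes, and none was called lower, although Nes was under 4 alternatives given with its values; 14.5% of the 11697 genes tested were called in either direction and 7.31% were called higher. Lgals3bp was at 211, 183, 176, 126 and 126 CPM in IkbkbWT and 890, 897, 471, 834 and 808 CPM in IkbkbCA (log2 fold change 2.23 ± 0.20 SE, edgeR FDR 2.49e-05). Sdc3 was at 150, 154, 154, 107 and 109 CPM in IkbkbWT and 455, 439, 298, 459 and 481 CPM in IkbkbCA (1.64 ± 0.15 SE, edgeR FDR 3.48e-05). The third IkbkbCA library was low for both, and it also had the lowest interferon-response sum of its group, 1617 CPM against 3278 to 4248, with 396 to 822 in IkbkbWT. Cpd did not share that dip: it was at 220, 201, 169, 175 and 187 CPM in IkbkbWT and 335, 343, 336, 406 and 385 CPM in IkbkbCA (0.90 ± 0.09 SE, edgeR FDR 5.53e-05). The groups did not overlap for any of the 3, and the share of all genes without overlap was not counted here either.

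Chst2, Nes and Actr3b overlapped between IkbkbCA and IkbkbWT, and the call of each changed with the libraries or the fit used. Chst2 was at 18.3, 22.1, 93.2, 23.1 and 29.6 CPM in IkbkbWT and 60.8, 53.1, 42.0, 35.3 and 42.3 CPM in IkbkbCA (0.30 ± 0.40 SE, 95% interval -0.58 to 1.18, edgeR FDR 0.712). Apart from that library, which carried the 825 CPM of astrocyte markers, every IkbkbCA library lay above every IkbkbWT library, and without it the log2 fold change was 0.97 (edgeR FDR 0.00612). Nes was at 19.1, 20.9, 52.2, 21.01 and 15.4 CPM in IkbkbWT and 11.6, 17.4, 11.4, 11.4 and 15.97 CPM in IkbkbCA (-0.95 ± 0.31 SE, edgeR FDR 0.0652). Without the same library the Nes value was -0.52, while without IkbkbWT replicate 5 it was -1.09 with an edgeR FDR of 0.0446. Nes was also called lower when the 3 sets into which the markers divide these libraries (replicates 1 and 2, 3, and 4 and 5) were a covariate, a choice made after seeing the data (-0.84, edgeR FDR 0.0258), by DESeq2 (-0.92, FDR 0.029) and in 1 fit of all 18 Ikbkb libraries (-0.94, edgeR FDR 0.0173). Actr3b was at 7.62, 8.03, 11.9, 6.16 and 7.05 CPM in IkbkbWT and 11.0, 11.7, 8.47, 9.19 and 11.3 CPM in IkbkbCA (0.32 ± 0.19 SE, 95% interval -0.11 to 0.74, edgeR FDR 0.336), and leaving out any 1 library did not bring it past the threshold (FDR 0.0715 to 0.535). Leaving out the third library of both groups, a choice made after seeing the data, brought the genes called to 5 of 6, adding Chst2 (1.03, edgeR FDR 0.00532) and Actr3b (0.58, edgeR FDR 0.0387), while Nes was at -0.44 (edgeR FDR 0.148).

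Removal of IKKβ was compared with Ikbkb+/+, the converse of the active kinase. Here 4 of 6 genes were called, all higher in Ikbkb-/-, against 14.6% of 11242 genes called in either direction and 7.64% called higher. Sdc3 was at 123, 138, 140 and 152 CPM in Ikbkb+/+ and 515, 535, 591 and 634 CPM in Ikbkb-/- (log2 fold change 2.04 ± 0.09 SE, edgeR FDR 5.86e-12). Lgals3bp was at 164, 154, 167 and 154 CPM in Ikbkb+/+ and 635, 638, 660 and 734 CPM in Ikbkb-/- (2.07 ± 0.08 SE, edgeR FDR 1.82e-12). Both genes thus rose with loss as with activation of the kinase, in each case in the group that carried Cre, and so did the interferon-response list: 15 of 17 genes were called higher in Ikbkb-/-, with sums of 3840 to 4920 CPM against 551 to 760. The list of NF-κB targets went the other way in the 2 comparisons, with 11 of 15 tested genes higher in IkbkbCA and, in Ikbkb-/-, 7 of 14 lower and 1 higher.

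Actr3b and Nes also rose without IKKβ. Actr3b was at 8.63, 7.18, 8.21 and 10.3 CPM in Ikbkb+/+ and 17.5, 17.6, 22.9 and 20.0 CPM in Ikbkb-/- (1.18 ± 0.16 SE, 2.27-fold, edgeR FDR 4.72e-05), with no overlap. Nes was at 19.4, 25.2, 27.9 and 23.7 CPM in Ikbkb+/+ and 30.1, 32.7, 43.2 and 44.5 CPM in Ikbkb-/- (0.65 ± 0.14 SE, edgeR FDR 0.00304), the ranges lying close together; in 1 fit of all 18 Ikbkb libraries, which shared their spread with IkbkbWT, its FDR was 0.217. Progenitor markers, which nestin accompanies in neural cells, summed to 80 to 107 CPM in Ikbkb-/- and 63.2 to 84.8 in Ikbkb+/+, and astrocyte markers to 103 to 164 and 115 to 244 CPM; oligodendrocyte markers were higher, 563 to 657 against 299 to 415 CPM. Their part in the Nes and Actr3b values was not tested.

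The remaining 2 genes were not called. Cpd was at 210, 204, 269 and 226 CPM in Ikbkb+/+ and 211, 239, 275 and 275 CPM in Ikbkb-/- (0.15 ± 0.10 SE, 95% interval -0.06 to 0.36, edgeR FDR 0.366). Chst2 was at 48.9, 28.9, 30.4 and 28.5 CPM in Ikbkb+/+ and 38.3, 35.6, 41.8 and 41.9 CPM in Ikbkb-/- (0.26 ± 0.15 SE, 95% interval -0.07 to 0.58, edgeR FDR 0.305). The overlap for Chst2 came from Ikbkb+/+ replicate 1, the library with the 419 CPM of granulocyte markers and the highest astrocyte sum of its group, and without it the log2 fold change was 0.44 (edgeR FDR 0.0134).

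Set against the interferon-response sum, library by library, Sdc3 and Lgals3bp were high in the 13 stimulated or Cre-bearing culture libraries and low in the 13 controls, and Cpd was high in only the fibril and IkbkbCA libraries. Against the astrocyte sum there was no single order. Vehicle and NTG had sums of 820 to 874 and 719 to 1100 CPM, but of unlike make-up. Slc1a3 was at 254 to 274 CPM in vehicle and 643 to 1000 CPM in NTG, and Gfap at 98.4 to 111 and 0.42 to 3.01 CPM. The sums therefore cannot be read as like amounts of astrocyte RNA. Chst2 was at 263 to 336 CPM in vehicle and 8.43 to 18.5 CPM in NTG, and Nes at 71.1 to 115 and 10.2 to 12.2 CPM. The part of astrocyte RNA in these values was not tested. P301S+ had sums of 903 to 2060 CPM, with Chst2 and Nes between those of NTG and vehicle.

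**Figure D3:**
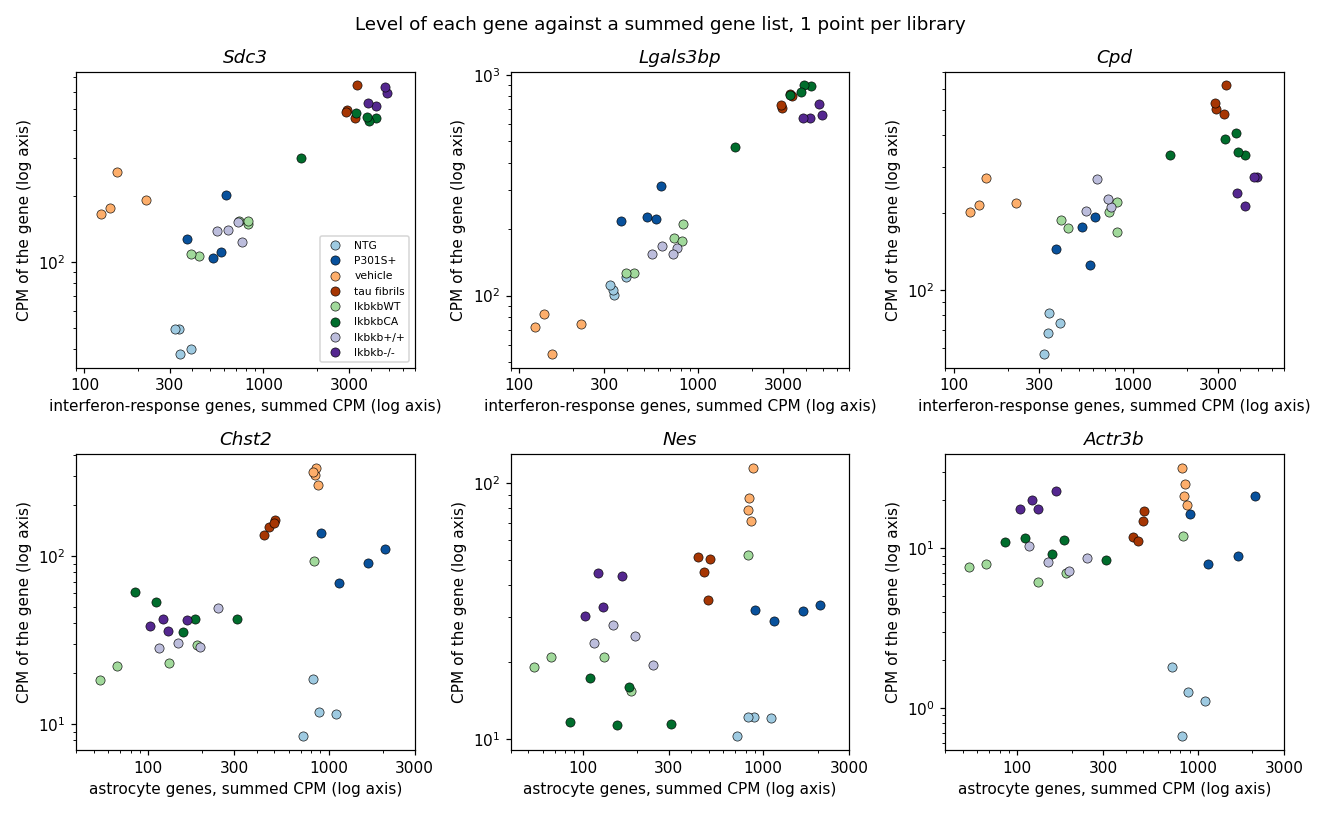
Level of each gene (CPM, log axis) against the summed CPM of interferon-response genes (upper row) or astrocyte markers (lower row, log axis), 1 point per library. Sdc3 and Lgals3bp are high in the fibril, IkbkbCA and Ikbkb-/- libraries with 1617 to 4920 CPM of interferon-response genes, while Cpd in Ikbkb-/- stays at 211 to 275 CPM; in the lower row the third IkbkbWT library stands with the vehicle and NTG libraries on the astrocyte axis.

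The effects of activating and of removing IKKβ were then set against each other in 1 fit. They differed for 2 of 6 genes, Cpd and Nes, where 3.12% of 12352 genes were called. Cpd rose more with the active kinase, by 0.77 ± 0.14 on the log2 scale (SE, edgeR FDR 0.00407), and its difference passed in each of 18 fits that left out 1 library. Nes had -0.95 in IkbkbCA and 0.65 in Ikbkb-/-, a difference of -1.58 ± 0.39 (SE, edgeR FDR 0.0297); it missed the threshold in 7 of the 18 fits, those without IkbkbCA replicate 4, any of the 4 Ikbkb+/+ libraries, or Ikbkb-/- replicate 3 or 4 (FDR up to 0.0747), and was -1.11 (edgeR FDR 0.00921) without the third IkbkbCA and IkbkbWT libraries. For Lgals3bp the difference was 0.17 (95% interval -0.31 to 0.66) and for Sdc3 -0.39 (-0.79 to 0.01), so neither gene was shown to respond unequally. Actr3b had -0.85 ± 0.25 (SE, edgeR FDR 0.0788) and Chst2 0.08 with a wide interval (-0.99 to 1.16).

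The effect of tau fibrils was likewise set against that of the active kinase, which share no control libraries. It differed for 2 of 6 genes, against 9.42% of 12841. Lgals3bp rose further with fibrils, by 1.13 ± 0.25 on the log2 scale (SE, edgeR FDR 0.00699). Actr3b fell with fibrils and had 0.32 in IkbkbCA, a difference of -1.24 ± 0.31 (SE, edgeR FDR 0.0134). Sdc3 (-0.34, 95% interval -0.83 to 0.14) and Cpd (0.24, -0.09 to 0.58) rose by amounts that were not shown to differ. Chst2 differed by -1.41 ± 0.47 (SE, edgeR FDR 0.0642), and by -2.07 (edgeR FDR 6.01e-06) without the third IkbkbWT library, while Nes differed by -0.09 (-0.92 to 0.73). The wild-type and Ikbkb cultures differed from each other at baseline, with Chst2 at 305 CPM in vehicle and 37.3 CPM in IkbkbWT, and batch and genotype cannot be told apart there.

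Some of the 6 moved with each other over the 26 culture libraries, after log2 levels were centred within each of the 3 experiments. The highest Pearson correlation was that of Sdc3 and Lgals3bp (r = 0.92), then Lgals3bp and Cpd (0.88) and Sdc3 and Cpd (0.77). Within groups, with the treatment effects removed, these were 0.50, 0.15 and 0.63. Chst2 and Actr3b had 0.64 over experiments and 0.59 within groups, and Nes and Cpd had -0.65 and -0.17. Points of one group share treatment and preparation, so the values are descriptive.

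The genes nearest to each of the 6 among 9845, by the same measure, were of different kinds. Dtx3l and Trim30a (both r = 0.99) were among the 3 genes nearest to Lgals3bp, and Sdc3 was nearest to Ifit2 (0.98), Parp11 (0.97) and Ifit3b (0.96); Ifit2, Ifit3b and Trim30a are interferon-induced. Cpd was nearest to Itgal (0.95), an integrin of leukocytes, Capza2 (0.95), which caps actin filaments, and Vasp (0.94), which extends them. Among the 3 nearest to Chst2 were Slc1a2 (0.82), the main glutamate transporter of astrocytes, and Chl1 (0.81), a neural adhesion protein. Nes was nearest to Scd2 (0.81), a fatty acid desaturase, Arap2 and Ckb (both 0.79), and Actr3b to Psrc1 (0.83), a spindle protein, Rgs16 (0.82) and Phlda3 (0.80), a known target of p53.

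In the adult contrast these nearest genes, where tested, had smaller fold changes than their partners, given as values only. The partners were chosen on that contrast, and the nearest genes on the culture libraries alone. The choice by itself favoured smaller values in the nearest genes, so no conclusion is drawn from the gap. Dtx3l had a log2 fold change of 0.31 in P301S+ vs NTG and Trim30a 0.07, where Lgals3bp had 1.12; Ifit2 had 0.48, Parp11 -0.01 and Ifit3b 0.38, where Sdc3 had 1.59. The median over 16 interferon-response genes was 0.50 and that over all genes 0.00. Slc1a2 had -0.38, where Chst2 had 2.95. Itgal, Capza2 and Vasp had 0.35, -0.19 and -0.36, where Cpd had 1.15. Scd2, Arap2 and Ckb had 0.46, 0.53 and -0.01, where Nes had 1.39. Phlda3 had 0.66, where Actr3b had at least 3.35.

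**Figure D4:**
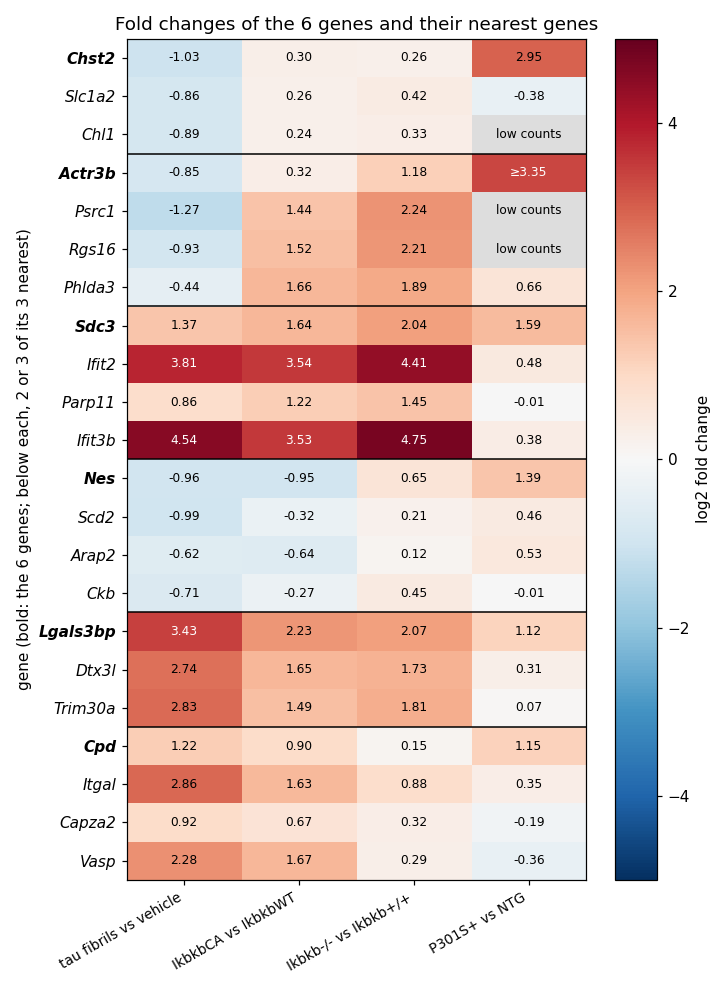
Log2 fold change of the 6 genes (bold) and, under each, 2 or 3 of its 3 nearest genes, in 4 comparisons; red is higher and blue lower in the first-named group, grey cells were below the count filter, and the adult Actr3b value is a lower bound. The genes shown under Sdc3 and Lgals3bp are red in the 3 culture columns and at -0.01 to 0.48 in the adult column. There Sdc3 stands at 1.59 and Lgals3bp at 1.12, both picked on that contrast.

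Relatives of each gene were read from lists by function and are described by counts and medians, with no test of a list. Over all genes tested, 1506 were called higher and 1602 lower of 10408 after fibrils (median log2 fold change -0.01), 855 and 837 of 11697 in IkbkbCA (median -0.05), and 859 and 782 of 11242 in Ikbkb-/- (median 0.00). For Chst2, other sulfotransferases and sulfate donors gave 0 higher and 1 lower of 13 tested after tau fibrils (median 0.14, the 1 being Chst11, a chondroitin sulfotransferase, at -1.02 ± 0.15 SE). In IkbkbCA 3 of 14 were higher and 1 lower (median 0.13), and in Ikbkb-/- 2 of 15 were higher and 1 lower (median -0.11). Chst7, which sulfates chondroitin, had 1.38 ± 0.27 SE in IkbkbCA and -2.29 ± 0.39 SE in Ikbkb-/-, a difference with an edgeR FDR of 7.99e-05, though its means were only 1.05 to 5.51 CPM there. Tpst1, a tyrosine sulfotransferase, rose in both IkbkbCA (0.91 ± 0.26 SE) and Ikbkb-/- (1.82 ± 0.18 SE).

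For Actr3b, which fell after fibrils, 12 of 24 genes tested on the branched-actin list rose and 5 fell, Actr3b not counted (median 0.52). Actr3, the close paralogue of Actr3b and named after its values were seen, was at 99.2 ± 5.73 CPM in vehicle (SD, n = 4) and 187 ± 34.9 CPM after fibrils (SD, n = 4; 0.90 ± 0.14 SE, edgeR FDR 1.8e-05). Hcls1, a cortactin of blood cells, rose by 1.89 ± 0.13 SE and Coro1a, a coronin of blood cells, by 1.57 ± 0.18 SE, while Cttn, the cortactin of other tissues, had -1.43 ± 0.37 SE. In IkbkbCA 3 of 25 rose and 1 fell (median 0.04), and in Ikbkb-/-, where Actr3b more than doubled, 2 of 24 rose and 1 fell (median 0.08) and Actr3 had 0.08 ± 0.09 SE. In P301S+ Actr3 had 0.16, as a value.

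For Sdc3, which rose after fibrils, the list of heparan sulfate core proteins and enzymes gave 3 of 27 higher and 9 lower (median -0.29). Xylt2, which starts the glycan chain on the core protein, rose by 2.17 ± 0.18 SE, and Gpc4, a glypican core protein, and Hs3st1, a sulfotransferase of the chain, had -1.40 ± 0.31 SE and -1.88 ± 0.53 SE. In IkbkbCA 1 of 26 was higher and 2 lower (median 0.00), and in Ikbkb-/- 5 of 25 were higher and 2 lower (median -0.01). Xylt2 was at 0.11 ± 0.16 SE in IkbkbCA and -0.04 ± 0.11 SE in Ikbkb-/-, the comparisons in which Sdc3 rose by 1.64 and 2.04.

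For Nes, 1 of 11 other intermediate filament genes rose and 4 fell after fibrils (median -0.53), among them Synm, a nestin-like filament protein, at -1.11 ± 0.38 SE, and Ina, a neuronal filament, at -0.70 ± 0.25 SE. In IkbkbCA 0 of 10 passed in edgeR, with 2 at an unadjusted p below 0.05 (median -0.15). In Ikbkb-/- 0 of 8 rose and 2 fell, among them Lmnb1, the nuclear lamin, at -0.51 ± 0.08 SE, where Nes rose. For Lgals3bp, galectins and their partners gave 3 higher and 1 lower of 10 after fibrils (median 0.11), 2 and 1 of 10 in IkbkbCA (median -0.06), and 2 and 1 of 9 in Ikbkb-/- (median 0.16). Lgals9, galectin-9, rose in all 3, by 2.77 ± 0.19, 0.67 ± 0.20 and 1.05 ± 0.13 SE. Siglece, an inhibitory sialic acid receptor, rose with fibrils from at most 1.07 CPM to 21.9 to 35.5 CPM, and Cd33, another receptor of that family, rose by 0.73 ± 0.22 SE. For Cpd, carboxypeptidases and convertases gave 3 higher and 2 lower of 8 after fibrils (median 0.23), 1 and 0 of 8 in IkbkbCA (median -0.09), and 0 and 1 of 8 in Ikbkb-/- (median 0.04). Cpe, a carboxypeptidase of neuroendocrine and glial cells, fell by 0.76 ± 0.13 SE after fibrils on the log2 scale, Pcsk6, a convertase, by 0.94 ± 0.21 SE, and Cpq, a lysosomal peptidase, rose by 1.31 ± 0.39 SE.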

How the data were processed

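The authors made 3′ QuantSeq libraries, mapped them to GRCm38 on the BlueBee platform and deposited whole-number counts per Ensembl gene for each library. The submitters' processing notes name STAR, which the methods give for the cortex samples, and RSEM, edgeR and limma; the files end in rows of the htseq-count kind, so the counter is uncertain. The 5 rows of uncounted reads were left out. Reads outside genes made up 12.4% to 38.3% of the reads that were in genes, outside genes or ambiguous. Symbols came from GENCODE M21 (47224 of 47643 identifiers). Each comparison was fitted on its own libraries with edgeR 4.0.16 (R 4.3.3; filterByExpr with a minimum count of 10 and total of 15, TMM, quasi-likelihood test), and Benjamini-Hochberg FDR was taken over all genes tested, called below 0.05. CPM was scaled by TMM over the 34 libraries. Alternatives used RLE or total-count scaling, DESeq2 1.42.0, limma 3.58.1 (voom), other filters, left-out libraries, 1 fit of the Ikbkb libraries and age as a covariate. The code was tested on simulated data.

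The 6 genes and all lists were chosen with earlier results of these data known. Named were the 6 genes, Ikbkb, for each gene the 3 with the highest correlation (1 each for Chst2 and Lgals3bp is not reported here), and from each list of relatives the 3 called genes with the largest change. Replicate numbers followed accession order, and no label says whether culture libraries came from separate cultures, so p-values measure the spread between libraries. None of the 56 pairs of libraries within groups was identical. Which strand was counted is not given in the sources used here. The 24 cortex samples were not analysed here.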

Additional observations from a re-analysis of the deposited data

Results flagged for a closer look

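In 7 of 48 sets of libraries (6 genes in 8 groups) 1 library lay far from the others by Dixon's test, which chance gives in about 1 of 20. Chst2 at 93.2 CPM and Nes at 52.2 CPM were both in IkbkbWT replicate 3, and Sdc3 at 298 CPM and Lgals3bp at 471 CPM were both in IkbkbCA replicate 3, the libraries with the high oligodendrocyte and astrocyte sums. The others were Chst2 at 48.9 CPM in Ikbkb+/+ replicate 1, Nes at 10.2 CPM in NTG replicate 4, and Lgals3bp at 313 CPM in P301S+ replicate 3.

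The IkbkbCA and Ikbkb-/- effects differed for Nes (-1.58 on the log2 scale) and Cpd (0.77), and the tau fibril and IkbkbCA effects for Actr3b (-1.24) and Lgals3bp (1.13), each by a test of the difference itself.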

How the results depend on the processing

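Each of the 377 values of a fold change under an alternative kept its direction, in all 4 comparisons. For P301S+ vs NTG that direction was set by the choice of the genes, so its values there are no check. Calls after tau fibrils stood at 6 of 6 throughout, although total-count scaling moved the median of all genes there to -0.16. Without replicate 3 of both IkbkbCA and IkbkbWT the genes called in that comparison went from 3 to 5. A covariate for 3 sets of those libraries (replicates 1 and 2, 3, and 4 and 5), also chosen after seeing the data, gave 4 genes with Nes at -0.84 (FDR 0.0258) and 2846 calls over all genes in place of 1692; DESeq2 (0.029) and 1 fit of 18 libraries (0.0173) called Nes too. That last fit called 875 genes in Ikbkb-/- in place of 1641, and 3 of the 6. Leaving out 1 library gave 3 to 4 genes in IkbkbCA, 4 to 5 in Ikbkb-/-, 1 to 2 for the difference of the IkbkbCA and Ikbkb-/- effects, and 2 to 3 for that of tau fibrils and IkbkbCA. Differences near 0 changed sign: that of Chst2 between IkbkbCA and Ikbkb-/- ran from -0.10 to 0.75, and that of Nes between tau fibrils and IkbkbCA from -0.51 to 0.068. Chst2 in the latter was called by limma-voom (-1.68, FDR 0.0109), with no filter (-1.33, FDR 0.00654) and with at least 10 counts in every library (-1.44, FDR 0.0438). That filter removed Actr3b from the adult comparison, where its depth was 2 or 3 counts in NTG. The causes were not tested. No paired analysis was possible because the labels carry no replicate numbers shared between groups; the 3 sets above were read from marker levels and do not pair single libraries.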
